A study of Mus musculus with 4 samples.

Results

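The genes described here are a set of 35 that serve the cellular response to low oxygen and the breakdown of glucose by glycolysis. They were chosen by symbol, and each was read from the probe sets annotated to it alone, taking the probe set with the highest mean where a gene had several. Of the 35, 33 were measured among the 18820 genes compared; Gpi1 and Eno1 had no probe set annotated to them alone and have no value here, and Ero1l is listed under its newer symbol Ero1a. Transcript levels came from mouse embryonic stem cells on Affymetrix whole-transcript arrays, as log2 values, with 2 biological replicates of wild-type cells and 2 of KAP1 fl/fl cells, 1 array per sample. KAP1, the product of Trim28, silences chromatin at sites bound by KRAB zinc finger proteins, and the fl/fl allele is a conditional one. All 4 samples, the wild type included, are labelled as treated with 4-hydroxytamoxifen, and the protocol, which also mentions a vehicle arm, gives 24 h of treatment followed by 48 h without it. The labels do not say if wild-type cells were their own line or undeleted fl/fl cells, so line and loss of Trim28 cannot be told apart; neither the Cre driver nor the number of clones is stated. Cells grew on irradiated embryonic fibroblasts, and the labels name no step that removed them. Culture oxygen is not stated either, and no sample is labelled as hypoxic.

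In cells with enough oxygen, prolyl hydroxylases of the Egln family mark the HIF alpha subunits, and the VHL ubiquitin ligase then has them destroyed. When oxygen falls the alpha subunits persist, pair with Arnt and bind DNA at a short core, ACGTG or GCGTG, near their target genes. Those targets raise glucose uptake and glycolysis, hold pyruvate back from mitochondria, and include Egln genes that feed back on the pathway. Embryonic stem cells use glycolysis even with oxygen present, and many of these transcripts were abundant on these arrays.

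Promoters of these genes are shown because the core motif is what links the set to oxygen sensing. RefSeq promoter windows on GRCm38.p6, 250 bases before to 50 after a transcript start, matched 32 of the 35 genes with 45 windows of 300 bases. ACGTG on either strand occurred in 25 of the 45 windows (55.6%), against 19.6% of all 32851 promoter windows and 26.9% of the 9823 windows of tested genes at or above the median level. The longer palindrome CACGTG, which contains ACGTG on both strands, occurred in 3 of the 45 (6.67%) and in 7.15% of all windows. The 250 upstream bases of 6 members follow, 5′ to 3′ on the gene's strand. ACGTG is in capitals, or CACGT where the match is on the other strand. The GCGTG form of the core was not counted and is left in lower case, so an unmarked promoter may still hold a core. Bnip3 and Egln3 had the widest gaps between same-genotype arrays in the set, Ddit4, P4ha2 and Ero1a rose in the knockout, and Hk2 fell. All 6 hold a match and do not stand for every member that changed. Adm, Pdk1 and Tpi1, which rose, and Kdm3a, which fell, had no ACGTG in any window.
Bnip3 (chr7:138909507-138909756, minus strand): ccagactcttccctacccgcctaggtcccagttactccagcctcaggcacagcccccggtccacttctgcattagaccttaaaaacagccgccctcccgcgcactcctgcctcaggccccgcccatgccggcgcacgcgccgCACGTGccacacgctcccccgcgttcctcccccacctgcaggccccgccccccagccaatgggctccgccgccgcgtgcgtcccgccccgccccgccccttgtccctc
Egln3 (chr12:54203875-54204124, minus strand): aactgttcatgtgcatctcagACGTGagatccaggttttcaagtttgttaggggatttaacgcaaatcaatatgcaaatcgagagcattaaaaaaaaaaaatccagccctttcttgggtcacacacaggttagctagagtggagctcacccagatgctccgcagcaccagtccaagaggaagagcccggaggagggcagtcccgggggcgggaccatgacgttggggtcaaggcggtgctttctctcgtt
Ddit4 (chr10:59951771-59952020, minus strand): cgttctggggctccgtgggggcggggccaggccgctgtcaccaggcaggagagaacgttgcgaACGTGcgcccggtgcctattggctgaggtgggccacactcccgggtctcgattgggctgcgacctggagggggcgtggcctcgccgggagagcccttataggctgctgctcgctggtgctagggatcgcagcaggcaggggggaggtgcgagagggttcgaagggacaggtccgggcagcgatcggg
P4ha2 (chr11:54100674-54100923, plus strand): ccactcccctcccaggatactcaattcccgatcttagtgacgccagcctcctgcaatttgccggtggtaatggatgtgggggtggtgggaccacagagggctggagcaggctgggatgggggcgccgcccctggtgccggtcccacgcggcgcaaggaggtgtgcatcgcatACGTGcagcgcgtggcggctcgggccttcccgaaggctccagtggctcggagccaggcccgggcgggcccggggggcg
Ero1a (chr14:45318573-45318822, minus strand): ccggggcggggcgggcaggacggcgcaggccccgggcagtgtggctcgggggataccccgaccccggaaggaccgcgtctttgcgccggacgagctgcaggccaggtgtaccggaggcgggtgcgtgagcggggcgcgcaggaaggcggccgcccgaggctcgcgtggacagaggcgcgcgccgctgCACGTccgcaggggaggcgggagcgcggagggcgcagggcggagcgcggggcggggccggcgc
Hk2 (chr6:82774455-82774704, minus strand): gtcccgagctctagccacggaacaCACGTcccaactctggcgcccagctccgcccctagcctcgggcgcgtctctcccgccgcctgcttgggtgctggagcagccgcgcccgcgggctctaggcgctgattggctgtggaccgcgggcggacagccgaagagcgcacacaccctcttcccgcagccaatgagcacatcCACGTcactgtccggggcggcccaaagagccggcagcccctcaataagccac
The match in Bnip3 is the palindrome, and Hk2 has separate matches. A match is a description of the letters and not of a bound site. Among members with a promoter entry, 5 of the 8 that rose, 2 of the 3 that fell and 16 of the 19 that did not pass the test had ACGTG in at least 1 window.

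The check of the labels held: Trim28 read 11.29 and 11.37 in wild-type cells and 8.97 and 8.92 in knockout cells, a fall by 2.38 on the log2 scale (limma adjusted p = 3.39e-05). Stem cell markers were present on every array but lower in the knockout: 5 of 8 fell and 0 rose, from Esrrb (by 1.11) to Nanog (by 0.42), and their mean was 10.62 and 10.61 in wild-type cells and 10.24 and 10.00 in knockout cells. Fibroblast markers differed between the groups: 12 of 15 rose and 0 fell, and their mean was 5.33 and 4.97 in wild-type cells and 6.70 and 6.71 in knockout cells. The largest of these rises were in the contractile genes Acta2 (4.65) and Tagln (4.61) and in the matrix gene Dcn (2.64), while Lum, Thy1 and S100a4 did not pass (changes of 0.18, 0.25 and 0.10). Of 5 trophoblast markers 3 rose (Krt8 by 3.56, Krt18 by 3.36, Cdx2 by 1.03), and Eomes (0.02) and Elf5 (-0.16) did not pass. Of 5 primitive endoderm markers 3 rose (Gata4 by 1.47, Pdgfra by 1.01, Sox17 by 1.00), and 0 fell in either list. Of 3 endothelial markers, Cdh5 rose and Pecam1 and Tek fell. The part of these shifts in the results that follow was not tested. In bulk RNA, fewer cells of a type and less RNA per cell cannot be told apart, and the p-values measure only the spread between these samples.

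Among the 33 measured members, 10 rose and 3 fell in the knockout, against 14.2% of all genes that rose and 12.7% that fell (26.9% in either direction). Calls were more frequent among brighter genes, where most members lie. With genes below the median level left out, 10 of 28 members rose and 3 fell, against 1906 and 2028 of 9410 genes. A call here is a limma adjusted p under 0.05, with Benjamini-Hochberg adjustment over all 18820 genes. The median change of the members was 0.13, and that of all genes was -0.05. Knockout and wild-type arrays did not overlap for 21 members, 15 of them higher and 6 lower in the knockout. Over all genes that share was 65.2%, so the members' total is close to the background. The split over all genes leaned the other way, with 5014 higher and 7257 lower. At least 2-fold changes were called for 4 members, Pfkfb3, Ddit4, Bhlhe40 and Adm, all upward, against 5.89% of all genes in either direction. The count of rises was 6 without wild-type replicate 1, without wild-type replicate 2 or without knockout replicate 1, and 11 without knockout replicate 2. The count of falls was 2 without either wild-type sample and 6 without knockout replicate 1, where the median change was -0.01. Subtracting array medians of the tested genes shifted all changes by -0.17, after which 6 members rose and 5 fell, with a median of -0.04. Over all 18820 genes, 2065 then rose and 6392 fell, with a median of -0.22, further from 0 than the -0.05 before. Those array medians were 5.46 and 5.48 in wild-type cells and 5.66 and 5.63 in knockout cells. Over all 35556 probe sets the deposited medians already lay close, at 4.76 and 4.75, then 4.76 and 4.77.

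**Figure D1:**
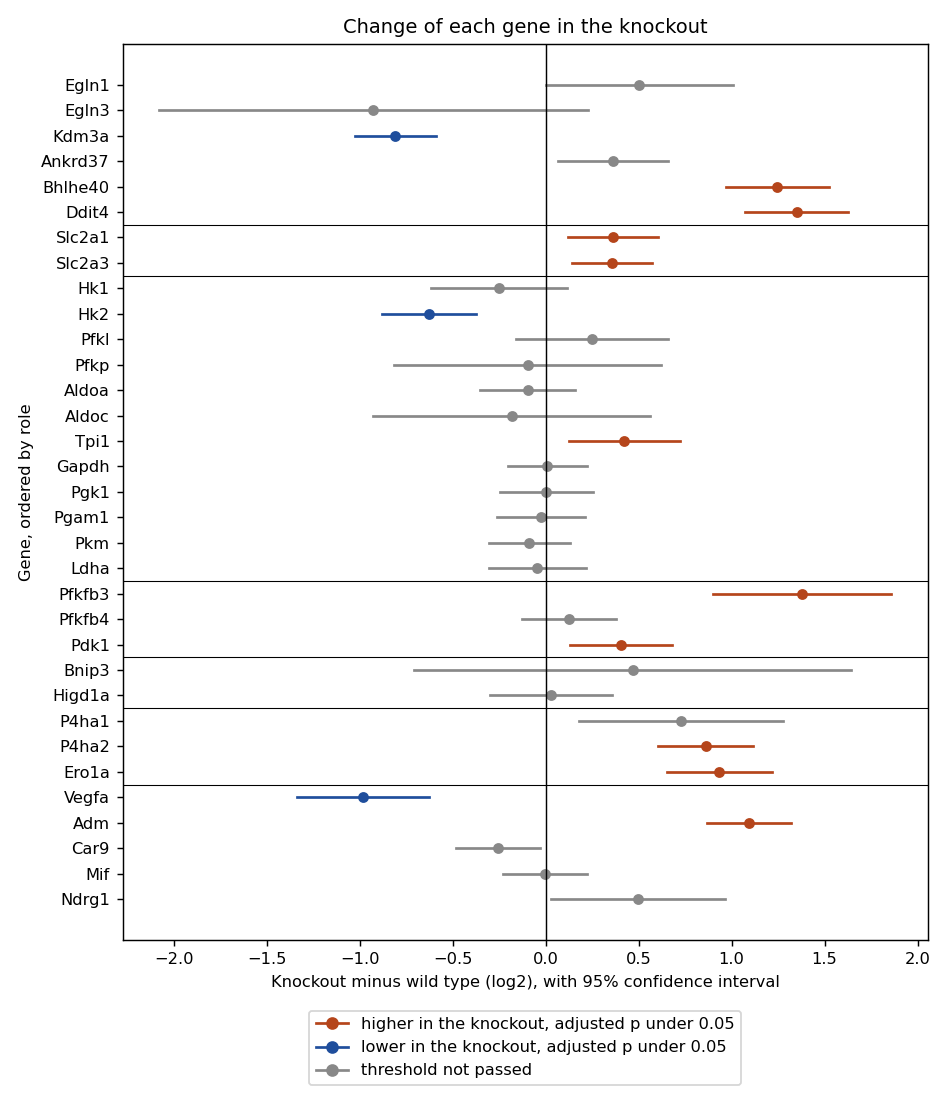
Knockout minus wild type in log2 units (horizontal axis) for each of the 33 measured genes, grouped by role from oxygen sensing at the top to secreted, surface and stress genes at the bottom; points are the changes and lines their 95% confidence intervals, not adjusted for the number of genes. The 10 genes past the threshold upward range from Slc2a3 (0.36) to Pfkfb3 (1.38), the 3 past it downward are Hk2, Kdm3a and Vegfa, and the long interval of Egln3 (-2.08 to 0.23) and that of Bnip3 (-0.71 to 1.64) come from replicates that lay far apart.

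Oxygen sensing and feedback genes went in both directions, with 2 of 6 rising and 1 falling. Ddit4, which restrains mTORC1 under stress, read 8.05 and 8.28 in wild-type cells and 9.60 and 9.43 in knockout cells. Its groups lay more than a log2 unit apart, and it rose by 1.35 (SE 0.12, adjusted p = 0.000429), 2.55-fold. Bhlhe40, a transcriptional repressor, stood at 6.54 and 6.37 in wild-type cells and 7.81 and 7.59 in knockout cells, a rise of 1.25 (SE 0.12, adjusted p = 0.000569). Both genes held their calls in all 16 alternative settings. The 50 expressed genes nearest to Bhlhe40 on chromosome 6 had a median change of 0.17. Kdm3a, a histone H3K9 demethylase whose activity needs oxygen, went the other way, from 8.95 and 9.03 to 8.16 and 8.20, a fall by 0.81 (SE 0.09, adjusted p = 0.00115). That call too held in all 16 alternatives.

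The prolyl hydroxylase genes did not pass, and their arrays spread widely within each group. Egln1, the main oxygen sensor of the family, read 7.26 and 6.68 in wild-type cells and 7.68 and 7.27 in knockout cells (change 0.50, SE 0.21, adjusted p = 0.130). The groups do not overlap, yet the higher wild-type array lies only just below the lower knockout array. Egln3, itself a strong HIF target, read 9.14 and 8.10 in wild-type cells and 8.39 and 7.002 in knockout cells (change -0.93, SE 0.48, adjusted p = 0.215). Its groups overlap, and within both genotypes replicate 1 is the higher array by more than a log2 unit. Without knockout replicate 1 the adjusted p of Egln3 was 0.0126, with a change of -1.62. Ankrd37, a small ankyrin-repeat protein, read 4.89 and 4.94 against 5.44 and 5.12 (adjusted p = 0.0745; 0.0235 without knockout replicate 2).

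Both glucose transporter genes rose slightly. Slc2a1, which encodes GLUT1, read 11.63 and 11.46 in wild-type cells and 11.95 and 11.87 in knockout cells (change 0.36, SE 0.10, adjusted p = 0.0400). Slc2a3, which encodes the high-affinity GLUT3, read 11.53 and 11.47 and then 11.86 and 11.85 (change 0.36, SE 0.09, adjusted p = 0.0264). Their wild-type levels lie at the 99.8th and 99.7th percentile of tested genes, and no array of one group overlaps the other. Neither call held once any single sample was left out: the adjusted p was 0.0699 to 0.183 for Slc2a1 and 0.0823 to 0.124 for Slc2a3. Slc2a3 has neighbours on chromosome 6 with a median change of 0.26, and with the shift of those expressed neighbours removed its adjusted p was 0.537; for Slc2a1, on chromosome 4, that median was -0.25. Both calls were also lost with array medians subtracted.

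Most enzymes of the glycolytic chain did not pass the test, with 10 of the 12 measured short of the threshold and changes between -0.25 and 0.25 among them. For 6 of those 10, the 95% interval lay within 0.5 log2 units of 0 on either side: Aldoa, Gapdh, Pgk1, Pgam1, Pkm and Ldha. Gapdh, the dehydrogenase often used as a reference, read 12.27 and 12.30 against 12.32 and 12.28 (interval -0.20 to 0.22). Ldha, which turns pyruvate into lactate, read 11.79 and 11.80 against 11.87 and 11.63 (-0.30 to 0.22). Pgk1, the first ATP-yielding enzyme of the chain, read 11.27 and 11.21 against 11.34 and 11.14 (-0.24 to 0.25). The knockout replicate 2 array was the lowest of the 4 for 9 of the 12 enzymes and knockout replicate 1 the highest for 8 (knockout replicate 2 was lowest for 30.3% of all genes).

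Hk2, the inducible hexokinase that starts glycolysis, was the enzyme that fell. It read 9.35 and 9.48 in wild-type cells and 8.87 and 8.71 in knockout cells, and fell by 0.63 (SE 0.11, adjusted p = 0.00580; 0.0600 without wild-type replicate 2). The constitutive Hk1 read 7.97 and 7.999 against 7.96 and 7.51 (adjusted p = 0.287); it passed when knockout replicate 1 was left out (0.0281) or array medians were subtracted (change -0.42, 0.0484). Tpi1, which interconverts the triose phosphates, rose by 0.42 from 10.25 and 10.13 to 10.76 and 10.46 (SE 0.125, adjusted p = 0.0471). That call was lost in 8 of 16 alternatives: without wild-type replicate 1 the adjusted p was 0.129, without wild-type replicate 2 it was 0.225, and without knockout replicate 1 it was 0.190. Its expressed neighbours on chromosome 6 had a median change of 0.19, and those of Gapdh one of 0.20.

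The other isozymes varied more between replicates than between genotypes. Pfkp, the platelet-type phosphofructokinase, read 8.70 and 8.08 in wild-type cells and 8.72 and 7.87 in knockout cells (adjusted p = 0.855). Aldoc, the brain-type aldolase, read 8.02 and 7.61 against 8.14 and 7.13 (adjusted p = 0.719; 0.0286 without knockout replicate 1, with a change of -0.69). In both genes each knockout array was matched by a wild-type array nearer to it than to its own replicate. Pfkl, the liver-type phosphofructokinase, read 9.32 and 9.11 against 9.71 and 9.22 (adjusted p = 0.337; 0.0419 without knockout replicate 2).

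Genes that set the rate of glycolysis and the fate of pyruvate included 2 of 3 that rose. Pfkfb3 makes fructose 2,6-bisphosphate, the allosteric activator of phosphofructokinase, and had the largest rise of the set. It read 5.64 and 5.84 in wild-type cells and 6.80 and 7.43 in knockout cells (change 1.38, SE 0.20, adjusted p = 0.00318) and lost its call without wild-type replicate 1 (0.0548). Both knockout arrays stood almost a log2 unit or more above the wild type, and knockout replicate 2 was the higher of them, unlike most members. Pfkfb4, its paralog, read 4.95 and 4.98 against 5.20 and 4.98 (adjusted p = 0.434). Pdk1, the kinase that switches off pyruvate dehydrogenase, rose by 0.40 from 9.33 and 9.25 to 9.83 and 9.57 (SE 0.12, adjusted p = 0.0418), and lost its call without wild-type replicate 1 (0.134), wild-type replicate 2 (0.195) or knockout replicate 1 (0.177). Subtracting array medians also ended it.

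Genes of protein folding and collagen hydroxylation rose in 2 of 3 cases. Ero1a, the oxidase that drives disulfide formation in the endoplasmic reticulum, rose from 7.88 and 7.83 to 8.94 and 8.65 (change 0.93, SE 0.12, adjusted p = 0.00187). The gap between the groups is larger than the gap within either. Its 50 nearest expressed neighbours on chromosome 14 had a median change of 0.54, and with that shift removed its change was 0.40 (adjusted p = 0.0391). P4ha2, a catalytic subunit of collagen prolyl 4-hydroxylase, rose from 6.01 and 6.05 to 6.78 and 7.005 (change 0.86, SE 0.11, adjusted p = 0.00173). Its paralog P4ha1 read 8.19 and 7.44 against 8.64 and 8.45 (change 0.73, SE 0.23, adjusted p = 0.0583), and passed without wild-type replicate 1 (change 1.11, adjusted p = 0.0161). Col1a1, a collagen gene among the fibroblast markers, read 6.13 and 5.63 in wild-type cells and 7.75 and 7.57 in knockout cells, and its part in these results was not tested.

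Secreted, surface and stress genes split. Vegfa, the angiogenic growth factor and a textbook HIF target, fell by 0.98 from 8.10 and 7.96 to 7.26 and 6.84 (SE 0.15, adjusted p = 0.00389; 0.0568 without wild-type replicate 1). Adm, which encodes the vasodilator peptide adrenomedullin, rose by 1.09 from 3.31 and 3.18 to 4.34 and 4.34 (SE 0.09, adjusted p = 0.000437). The groups do not overlap for Vegfa or Adm. The wild-type level of Adm was at the 13.8th percentile of tested genes, and how far that stands above background was not measured. Car9, the surface carbonic anhydrase that is almost a hallmark of hypoxic cells, was dim on all arrays at 3.80 and 3.71 against 3.55 and 3.45 (adjusted p = 0.0969). Its change was -0.43 with array medians subtracted, which passed (adjusted p = 0.0133). Ndrg1, a stress and differentiation gene, read 6.59 and 6.22 against 7.16 and 6.63 (change 0.50, adjusted p = 0.113; 0.0173 without knockout replicate 2), and the cytokine gene Mif read 11.13 and 11.07 against 11.16 and 11.04.

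Mitochondrial members did not pass. Bnip3, a receptor for removal of mitochondria, read 8.89 and 7.84 in wild-type cells and 9.55 and 8.12 in knockout cells (change 0.47, SE 0.49, adjusted p = 0.545). The higher array of each genotype stands about a log2 unit or more above the lower. Higd1a, which acts on the respiratory chain, read 5.31 and 5.06 against 5.37 and 5.07, and its dimmer probe set gave a change of -0.30 where the brighter gave 0.03. In all, 8 members had several probe sets annotated to them alone, some of which may read processed copies elsewhere in the genome. The changes of the 17 Gapdh probe sets ranged from 0.01 to 0.11, the pair for Bnip3 gave 0.21 and 0.47, and the pair for Tpi1 0.23 and 0.42.

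**Figure D2:**
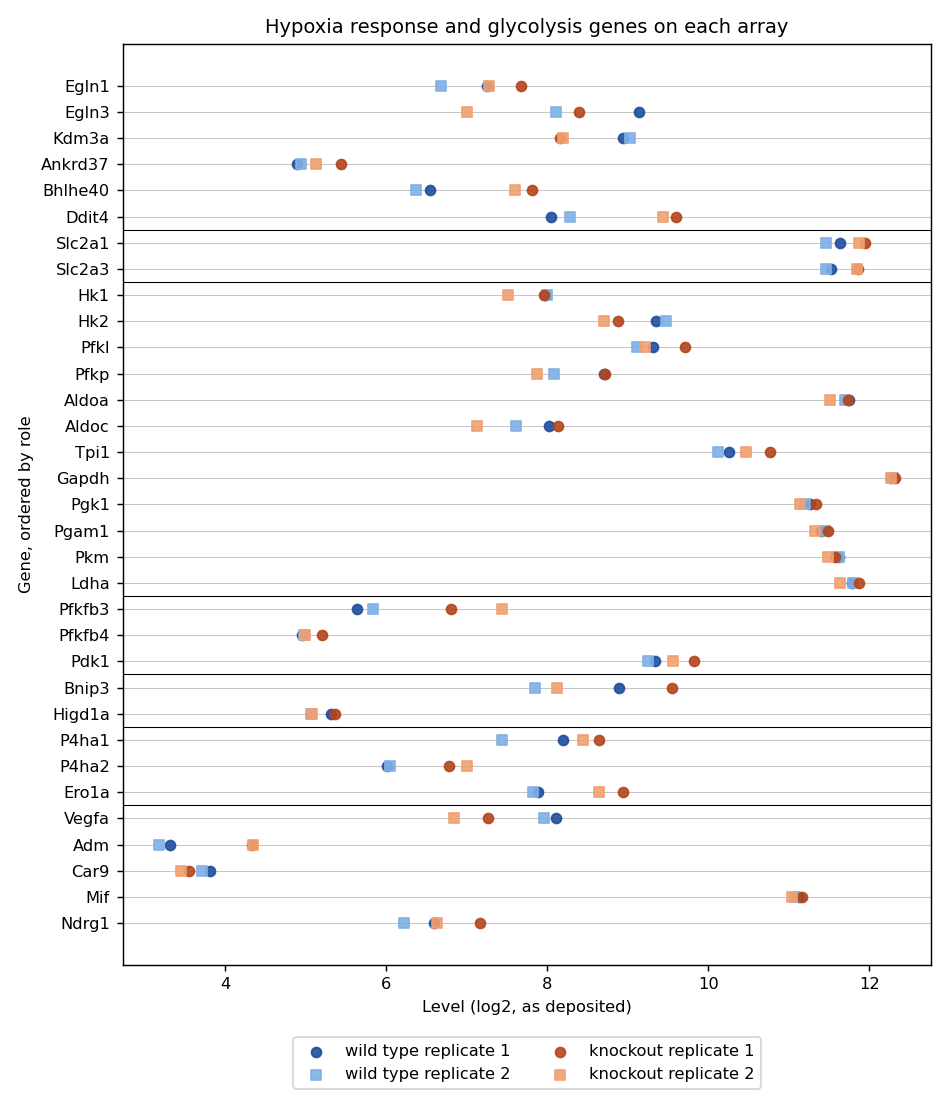
Log2 level as deposited (horizontal axis) of the 33 genes on each of the 4 arrays; circles are replicate 1 and squares replicate 2, blue shades for wild type and orange shades for knockout. For Ddit4, Bhlhe40 and Adm the colours separate, while for Bnip3, Egln3, Pfkp and Aldoc the circles lie to the right of the squares in both colours.

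Replicate numbers separated part of the set as widely as genotype did. Replicate 1 was above replicate 2 in both genotypes for 20 of the 33 members (60.6%), against 25.5% of all genes, and the reverse held for 3 members (9.09%), against 27.6%. The median difference between replicate 1 and replicate 2 over the members was 0.06 in wild-type cells and 0.22 in knockout cells, and over all genes it was -0.0034 and -0.0049. Replicate 1 exceeded replicate 2 by at least 0.5 log2 units in both genotypes for 3 members (9.09%), Bnip3, Egln3 and Pfkp, against 0.186% of all genes, 35 in number. With 1 array per genotype and number, this is a description and carries no test.

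Bnip3 differed by 1.05 in wild-type cells and 1.43 in knockout cells, Egln3 by 1.04 and 1.39, and Pfkp by 0.62 and 0.85. The dimmer probe set of Bnip3 gave 0.71 in wild-type cells and 1.35 in knockout cells. Aldoc (0.42 and 1.01), Egln1 (0.57 and 0.41) and Ndrg1 (0.37 and 0.53) ran the same way just short of that limit in a genotype. P4ha1 differed by 0.75 in wild-type cells and 0.19 in knockout cells. The opposite sign in both genotypes was seen for Pfkfb3 (-0.20 and -0.63), P4ha2 (-0.04 and -0.22) and Kdm3a (-0.08 and -0.03), so the members did not all follow the replicate number. Ddit4 (-0.23 and 0.16), Bhlhe40 (0.17 and 0.22) and Adm (0.13 and -0.00) had replicate differences far below their changes between genotypes. For 11 of the 33 members the mean replicate difference was larger than the genotype change (26.0% of all genes). Per array, the median level of the members was 8.70 and 8.08 in wild-type cells and 8.72 and 8.20 in knockout cells. Each of these medians is the value of a single gene, Pfkp on every array but knockout replicate 2, where it is Kdm3a. They do not measure a shift of the whole set, for which the median per-gene differences were 0.06 in wild-type and 0.22 in knockout cells.

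**Figure D3:**
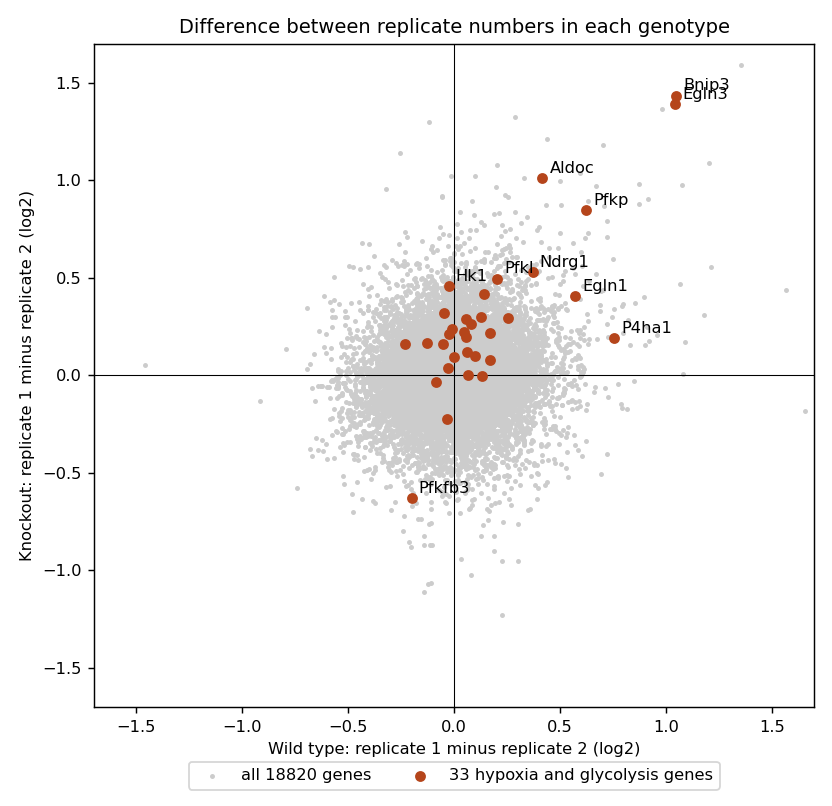
Replicate 1 minus replicate 2 in log2 units in the wild type (horizontal axis) and in the knockout (vertical axis); grey points are all 18820 genes, of which 6 lie outside the axes, and red points are the 33 hypoxia and glycolysis genes. Bnip3 and Egln3 lie at the upper right, above 1 on both axes, and Pfkfb3 lies at the lower left.

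Most regulators of the pathway did not pass the test, as was the case for most genes tested. Of 17 genes of the HIF machinery, 2 rose and 1 fell, against 14.2% and 12.7% of all genes. Their median change was -0.05, and that of all genes was -0.05. Hif1a, the oxygen-labile subunit, read 9.56 and 9.33 against 9.69 and 9.71 (change 0.25, adjusted p = 0.141). Epas1, which encodes HIF-2 alpha, fell by 0.48 from 9.27 and 9.44 to 8.79 and 8.96 (adjusted p = 0.0175; 0.0550 without wild-type replicate 1, 0.116 without wild-type replicate 2 and 0.0693 without knockout replicate 1). Arnt2, a partner subunit, rose by 0.71 (adjusted p = 0.00404), while Arnt itself read 9.43 and 9.39 against 9.41 and 9.11. Vhl rose by 0.37 (adjusted p = 0.0233) and lost its call with any single sample left out (0.0773 to 0.110); its chromosome 6 neighbours had a median change of 0.24. The hydroxylases Hif1an (change 0.12) and Egln2 (-0.07) did not pass. These levels are transcripts, and HIF alpha is controlled mainly as a protein.

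Hypoxia targets outside the set went in both directions (over all genes, 14.2% rose and 12.7% fell). Of 28 measured, 11 rose and 6 fell, with a median of 0.21; leaving out single samples left 7 to 10 rises and 2 to 5 falls. Loxl2, a collagen cross-linking oxidase, rose by 2.74, Flt1, a VEGF receptor, by 1.87, and Plod2, a collagen lysyl hydroxylase, by 1.86, and Lox, another cross-linking oxidase, by 1.69. Among the falls, Gys1, muscle glycogen synthase, fell by 1.02 and Angptl4, a lipase inhibitor, by 0.82. Loxl2 lies on chromosome 14, where its expressed neighbours had a median change of 0.57. The fibroblast markers described above rose on the same arrays.

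The neighbouring branches of metabolism held both rises and falls, where 14.2% of all genes rose and 12.7% fell. Of 15 genes of lactate and pyruvate handling 1 rose and 4 fell: Slc16a3, the lactate exporter MCT4 and a HIF target, rose by 1.12 from 8.30 and 7.79 to 9.42 and 8.90 (adjusted p = 0.0104; 0.0924 without wild-type replicate 2). Mpc1, a subunit of the mitochondrial pyruvate carrier, fell by 0.88 (adjusted p = 0.00359), Pcx, pyruvate carboxylase, by 0.77, and Pdhx, a pyruvate dehydrogenase component, by 0.63. Leaving out wild-type replicate 1 or 2 gave Pcx 0.0823 and 0.0521, and leaving out wild-type replicate 2 gave Pdhx 0.0963, as adjusted p. In the TCA cycle 1 of 15 rose and 4 fell, with a median of -0.20. Suclg2 rose by 1.14, with chromosome 6 neighbours at 0.36, and Sdhc (-0.62), in a stretch of chromosome 1 with neighbours at -0.40, Sucla2 (-0.62) and Idh3b (-0.47) fell. The values of Suclg2 and Mpc1 come from the brighter of 2 probe sets, and neighbours were chosen by the gene's annotated position. Leaving out wild-type replicate 1 gave adjusted p-values of 0.0546 for Sucla2 and 0.0731 for Idh3b.

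Among 14 other glycolytic isozymes 2 rose and 4 fell (median -0.22). Pgam2, the muscle phosphoglycerate mutase, rose by 0.94, while Eno3, the muscle enolase, fell by 0.67, Pklr, the liver pyruvate kinase, by 0.61, and Tigar, which lowers fructose 2,6-bisphosphate, by 0.47. Calls of Eno3 (0.0653 and 0.0953), Pklr (0.105 and 0.126) and Tigar (0.0565 and 0.0662) were lost without wild-type replicate 1 or 2, and that of Pklr also without knockout replicate 2 (0.0542). In the pentose phosphate pathway 1 of 6 fell, Taldo1 by 0.50 (0.0780 without wild-type replicate 2), and 0 rose. Of 6 gluconeogenic genes 2 fell and 0 rose: Fbp1 by 0.64 (0.0511 without wild-type replicate 1) and G6pc by 0.44, both dim, with wild-type means at or below 4.25. G6pc lost its call without wild-type replicate 1 (0.138), knockout replicate 1 (0.0771) or knockout replicate 2 (0.0791). With single samples left out the falls numbered 1 to 3 in the TCA cycle, 0 to 3 among the glycolytic isozymes (0 without wild-type replicate 1 or 2), 1 to 3 in lactate and pyruvate handling (1 without wild-type replicate 2), 0 to 1 in the pentose phosphate pathway and 0 to 2 in gluconeogenesis. Without wild-type replicate 1 the TCA cycle had 1 fall and gluconeogenesis 0. With array medians subtracted the falls numbered 9 in the TCA cycle, 8 among the glycolytic isozymes, 6 in lactate and pyruvate handling, 3 in the pentose phosphate pathway and 4 in gluconeogenesis. Falls over all 18820 genes also grew in that setting, from 2395 to 6392, since every change shifted downward.

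**Figure D4:**
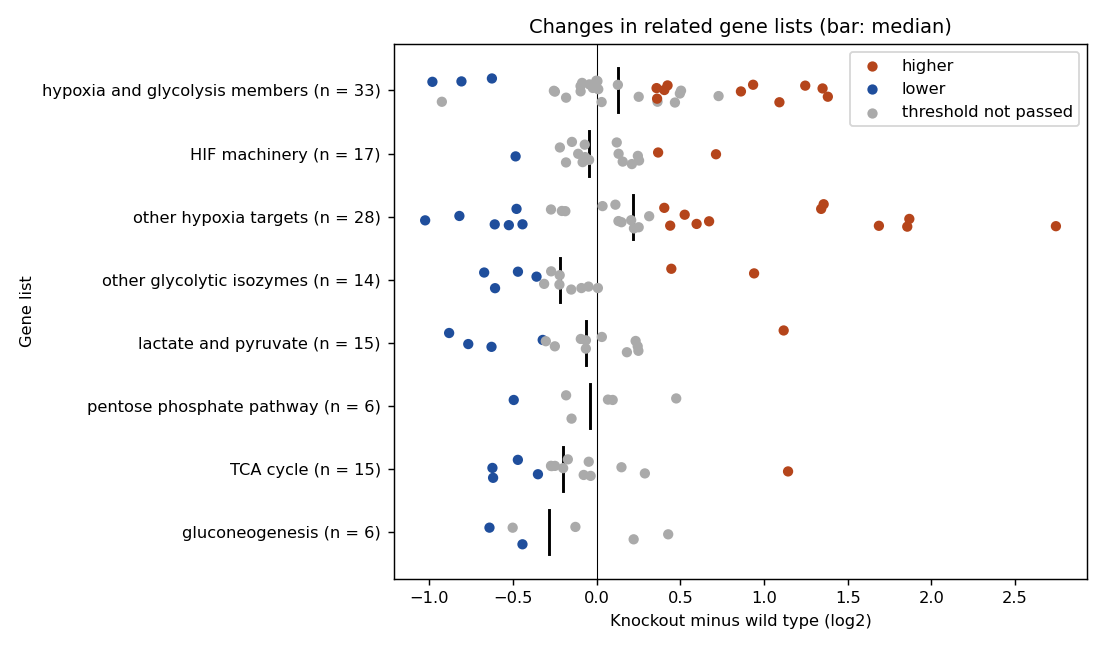
Knockout minus wild type in log2 units (horizontal axis) for the 33 members and for 7 related gene lists (vertical axis); each point is a gene, coloured by whether it passed as higher or lower, and black bars are medians. Medians run from -0.29 in gluconeogenesis to 0.21 in the other hypoxia targets, and most enzymes cluster between -0.5 and 0.5.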

How the data were processed

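Mouse Gene ST arrays were hybridised from 250 ng of total RNA a sample, and the deposited log2 values come from RMA in affy, per the submitters' processing notes and the labels' protocols; versions and settings are not given in the sources used here. RMA compresses differences among dim probe sets. The values were used as deposited. Detection calls were not used, so signal over background is unknown, and the number of arrays limits the precision.

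Of 35556 probe sets, 21218 carry 1 gene symbol, 1881 several and 12457 none here. Only those with 1 symbol were used, and the probe set with the highest mean was kept, which left 18820 genes; names and gene order came from RefSeq (GRCm38.p6), which held the gene ID of 21185 of the 21218 probe sets. Over all genes, limma 3.58.1 (R 4.3.3; lmFit and eBayes, 2 residual and 4.70 prior degrees of freedom) tested the genotype difference on both sides, and a Benjamini-Hochberg adjusted p under 0.05 counted as a call. The fit was also run on simulated data, as a check of the code. The simulated noise was independent and held no replicate effect, so that run does not bear on the calls made here. Neighbour medians are over the 50 nearest genes at or above the median level on the same chromosome. The text names all members, Trim28, the main HIF regulators, and of each related list up to 4 called genes, taken by size of change; other genes were named after their values were seen. The members, the lists and the alternatives were chosen with earlier results of these data known. Alternatives covered the prior, dim genes, scaling, probe sets, neighbours, thresholds, a replicate block and each sample left out.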

Additional observations from a re-analysis of the deposited data

How the results depend on the processing

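Of the 13 members that passed, 6 (Kdm3a, Bhlhe40, Ddit4, P4ha2, Ero1a and Adm) kept their call in every alternative that tested them, which was 16 for each but Adm, tested in 14 since both filters on dim genes left it out. All 13 kept their sign in the alternatives run. The removal of the shift of expressed neighbours was added after seeing the data. Members that rose numbered 6 with array medians subtracted and 6 with a limit of 1.5-fold, and 6 to 11 with single samples left out; those that fell numbered 5 with array medians subtracted and 2 to 6 with single samples left out. The median change of the members ran from -0.01 to 0.33 with single samples left out. Over all genes, which numbered 2676 higher and 2395 lower, single omissions gave 1531 to 2405 higher and 899 to 1945 lower, a limit of 1.5-fold gave 1744 and 968, and array medians subtracted gave 6392 lower. Over the 7 related lists together, with 17 higher and 22 lower of 101, single omissions gave 11 to 16 and 8 to 16, the 1.5-fold limit left 11 lower, and array medians subtracted gave 40 lower.

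The labels give both groups the replicate numbers 1 and 2 without saying that a number marks a shared day or batch. Deviations of same-numbered arrays correlated at 0.145 over all 18820 genes and 0.235 over those at or above the median level, and with 2 pairs this does not establish a pairing. With the replicate block, 14 members were higher and 4 lower, the additions being Egln1 (adjusted p = 0.0154), Bnip3 (0.0410), P4ha1 (0.0198) and Ndrg1 (0.0158) upward and Egln3 (0.00409) downward; all genes called numbered 5093 against 5071. In that fit the replicate number itself gave 0 genes past the limma adjusted threshold and 1212 with an unadjusted p under 0.05, 11 of them members, led by Bnip3 and Egln3 (adjusted p = 0.226 for both).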

Other observations

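The 35 genes at least 0.5 log2 units higher in replicate 1 than in replicate 2 in both genotypes, named here after their values were seen, were led by immediate-early genes, which answer growth factors and handling within minutes. Fosb read 7.22 and 4.96 in wild-type cells and 9.36 and 5.10 in knockout cells. Fos read 7.41 and 4.86, then 8.89 and 5.51, and Egr1 7.91 and 6.56, then 9.03 and 7.43. Bnip3 and Egln3 followed at ranks 5 and 6 by mean difference, after the matrix gene Mgp. Jun, Zfp36 and Dusp1, further early-response genes, were also among the 35, as were Pgm1, which links glycogen to glycolysis (8.13 and 7.42, then 7.88 and 7.01), and the lactate exporter gene Slc16a3. In Slc16a3 the replicate differences were 0.51 and 0.52 and the genotype change was 1.12.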
